A study of Mus musculus with 10 samples.

Results

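The circadian clock of mammals is a loop of transcription factors. CLOCK and ARNTL (also called BMAL1) bind E-box sequences and switch on the Per and Cry genes, whose proteins then block CLOCK and ARNTL. The same pair drives an output arm, the PAR bZIP factors Tef, Dbp and Hlf, which activate genes through D-box sequences, while Nfil3 (E4BP4) represses genes through the same sites. In adult rodents the clock runs in the suprachiasmatic nucleus of the hypothalamus and in most other tissues, and Tef was first known as a factor of the embryonic pituitary.

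The members described here are the 10 genes Tef, Dbp, Hlf, Nfil3, Per1, Per2, Cry1, Cry2, Clock and Arntl, and every probe set named for one of them in the array's probe table was taken. 9 of the 10 genes had probe sets, 12 in all out of 12422 that were not controls, and the level of Hlf was not analysed here. Tef was chosen by its own values, since it was among the genes that stood out in XmO against XX_Paf, so its levels in XmO and XX_Paf are given as a description with no test, and nothing is read from the number of members called in that comparison. The remaining members were chosen for their place in the clock.

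Affymetrix arrays, 10 in number, held RNA from whole brains of mice at postnatal day 0. XmO animals (39 chromosomes, a maternal X alone; replicates 1, 2 and 7) and XX_Paf females (40 chromosomes; replicates 1, 2 and 3) came from the cross written C57BL/6J x C3H/Paf. XpO animals (39 chromosomes, a paternal X alone; replicates 15 and 18) and XX_InX females (replicates 1 and 19) came from the cross written In(X)/C3H x C57BL/6J. All 4 groups are thus crosses of C57BL/6J with a C3H line, and the 2 crosses carry different C3H lines. The labels state neither the hour at which brains were taken nor whether an array holds 1 animal or a pool, so p-values measure only the spread between these arrays. Neuron genes were bright on every array, with Tubb3 between 22313 and 28697 and Dcx between 6842 and 8462. Xist, the RNA of the inactive X, lay between 21.3 and 49.9 on the 5 XO arrays and between 1673 and 4082 on the 5 XX arrays, as their labels call for. Intensity is the deposited linear value, and a probe set was taken as above background on an array where it exceeded the brightest of 9 Y-linked probe sets (33.6 to 136.6), which have no template in these animals.

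Tef was the member that differed most between groups, and the difference lay in XX_Paf. Its intensity was 883.3, 751.0 and 648.9 in XmO, against 447.5, 184.3 and 318.0 in XX_Paf. It was 535.7 and 614.4 in XpO, against 733.8 and 542.8 in XX_InX. All 3 XX_Paf arrays were thus lower than each of the other 7 arrays, while XpO and XX_InX overlapped. Tef averaged 761 ± 118 in XmO and 317 ± 132 in XX_Paf (SD, n = 3 each), a log2 fold change of 1.35 (SE 0.27), which leaving out 1 array moved to between 1.001 (XX_Paf 2) and 1.64 (XX_Paf 1). XX_Paf females were lower than XX_InX females by a log2 value of -1.09 (SE 0.30), and XmO lay above XpO by 0.40 (SE 0.30). A place below the other 7 arrays was shared with 170 of the 8695 tested probe sets, 1.96%. In a whole brain, fewer cells of a type and less RNA per cell cannot be told apart.

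The one comparison that played no part in choosing Tef was XpO against XX_InX. There Tef averaged 575 ± 55.6 in XpO and 638 ± 135 in XX_InX (SD, n = 2 each), a log2 fold change of -0.14 with a 95% confidence interval of -0.84 to 0.57 (limma, adjusted p = 0.9998). Its sign rested on 1 array, since the estimate was 0.08 without XX_InX 1. The log2 fold change of XmO against XX_Paf exceeded that of XpO against XX_InX by 1.48 (SE 0.42). This difference again uses the XmO and XX_Paf arrays and is a description.

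A liver marker set XX_Paf apart as Tef did. Albumin (Alb), the main plasma protein made by liver, was at 32.1, 98.0 and 112.1 in XmO and at 1279.5, 554.7 and 244.9 in XX_Paf. It was at 23.4 and 113.9 in XpO and at 44.6 and 109.2 in XX_InX. Alb was higher on all 3 XX_Paf arrays than on the other 7, but within XX_Paf it was highest on XX_Paf 1, where Tef was highest too. Of the other liver genes, apolipoprotein A1 (Apoa1) was at 16.6 to 17.2 in XmO and 27.4 to 126.9 in XX_Paf, above background on 1 array. Alpha-fetoprotein (Afp) was at 90.8 to 112.6 in XmO and 41.6 to 91.8 in XX_Paf. Afp was above background on 2 of 3 XmO and 1 of 3 XX_Paf arrays. Of the skeletal muscle genes, the actin gene Acta1 and the myosin light chain gene Myl1 were highest on XX_Paf 2, the array with the lowest Tef. Acta1 was at 2448.2 there (179.6 to 574.3 on the other 9 arrays). Myl1 was at 568.8 there and next highest, at 384.6, on XmO 1, the array with the highest Tef. The muscle gene Ckm was not high on XX_Paf 2, at 117.6 within a range of 22.3 to 260 over all arrays. The 8 genes of the liver and skeletal muscle list summed to 680 to 1242 in XmO, 1057 to 3977 in XX_Paf, 587 to 973 in XpO and 754 to 1033 in XX_InX, with 1 gene, Myh3, below background on all arrays. Their part in the Tef difference was not tested.

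The DNA before the starts of Tef was examined for the site through which the clock acts. Windows of 300 bases around annotated starts (RefSeq, GRCm38.p6) were at hand for 9 members (Hlf among them, Per2 not), 14 windows in all, and were searched for the E-box CACGTG, which reads the same on both strands, and for the D-box spellings TTATGTAA and TTACGTAA on both strands. The E-box stood in 4 of the 14 windows, those of both Tef starts, 1 Per1 start and Cry1, against 7.15% of 32851 windows of all genes. No window of a member held either D-box spelling, which 0.938% and 0.119% of all windows did. The 250 bases before each of these 4 starts follow, 5′ to 3′ on the gene's strand, with the E-box in capitals. They are shown because they hold the letters that CLOCK and ARNTL bind, in the member that differed and in 2 genes of the clock loop itself. The stretch before the first Tef start is chr15:81802423-81802672 (plus strand), that before the second chr15:81811164-81811413 (plus strand), that of Per1 chr11:69098699-69098948 (plus strand) and that of Cry1 chr10:85185055-85185304 (minus strand).
Tef, first start: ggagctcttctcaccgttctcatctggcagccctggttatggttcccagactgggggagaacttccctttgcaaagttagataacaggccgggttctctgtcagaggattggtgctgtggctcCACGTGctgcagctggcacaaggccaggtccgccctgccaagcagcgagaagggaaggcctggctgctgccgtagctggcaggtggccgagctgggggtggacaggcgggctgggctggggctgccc
Tef, second start: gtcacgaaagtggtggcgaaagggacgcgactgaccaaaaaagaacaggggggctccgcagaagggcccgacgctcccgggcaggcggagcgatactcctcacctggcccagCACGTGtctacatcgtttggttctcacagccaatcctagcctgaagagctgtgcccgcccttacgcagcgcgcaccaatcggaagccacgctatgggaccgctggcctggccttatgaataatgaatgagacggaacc
Per1: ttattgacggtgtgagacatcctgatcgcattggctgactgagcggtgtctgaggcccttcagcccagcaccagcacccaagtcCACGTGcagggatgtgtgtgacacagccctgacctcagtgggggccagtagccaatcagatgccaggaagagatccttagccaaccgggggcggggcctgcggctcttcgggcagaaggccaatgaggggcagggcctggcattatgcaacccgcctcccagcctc
Cry1: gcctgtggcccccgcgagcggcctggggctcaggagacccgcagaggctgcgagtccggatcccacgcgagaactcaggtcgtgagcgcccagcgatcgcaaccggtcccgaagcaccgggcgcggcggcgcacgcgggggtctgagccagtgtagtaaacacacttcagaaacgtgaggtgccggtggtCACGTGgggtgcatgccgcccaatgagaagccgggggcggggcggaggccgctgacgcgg
The E-box began 127 and 138 bases before the Tef starts, 166 before that of Per1 and 60 before that of Cry1. A match of letters is a description and says nothing of binding in these brains.

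Dbp, the PAR bZIP gene with the widest daily swing in adult tissues, stayed near or below background. Its intensity was 14.6, 13.1 and 14.6 in XmO, against 37.3, 78.7 and 12.8 in XX_Paf. It was 59.5 and 12.4 in XpO, against 12.1 and 14.0 in XX_InX. On XpO 15 alone did Dbp pass the background, so the groups could not be compared for Dbp and it was not tested. Nfil3, the repressor that competes at the same sites, had 2 probe sets. The one listed under U83148 stayed between 169.9 and 246.8 on all 10 arrays, with XmO at 206 ± 38.6 and XX_Paf at 200.1 ± 19.6 (SD, n = 3 each). The other carries the suffix that the array's maker gave to probe sets matching a family of similar sequences. It was at 212.5, 306.3 and 211.2 in XmO and 183.0, 202.8 and 197.5 in XX_Paf, without overlap, and at 231.5 and 295.9 in XpO and 339.8 and 215.8 in XX_InX, with overlap. Its log2 fold change was 0.30 in XmO against XX_Paf (SE 0.23; limma, adjusted p = 0.887) and -0.05 in XpO against XX_InX (SE 0.28; limma, adjusted p = 0.9998). The U83148 probe set gave 0.03 in both comparisons. Between XX_Paf and XX_InX the family probe set had -0.48 (SE 0.25; limma, adjusted p = 0.417).

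**Figure D1:**
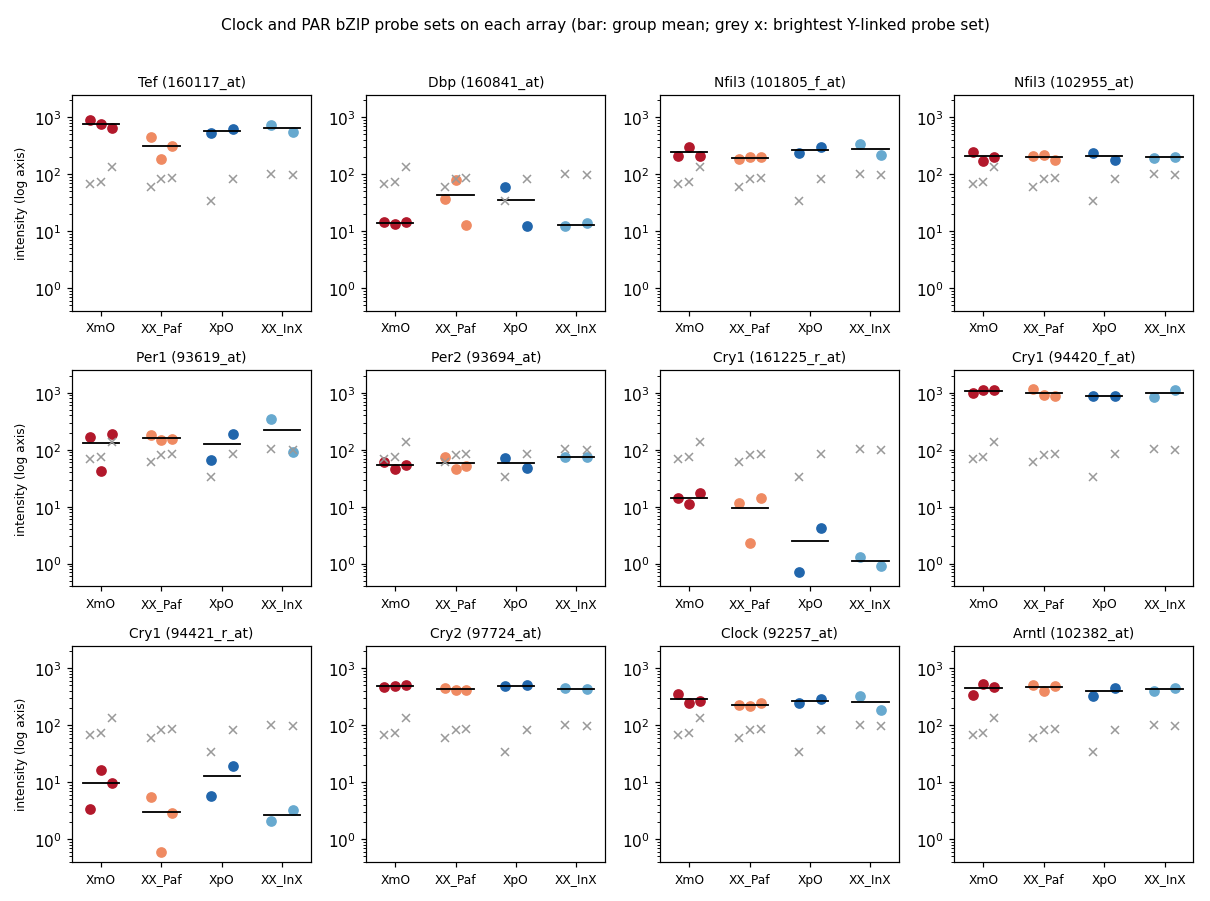
Intensity (log axis) of the 12 probe sets of the 9 measured genes on each array, by group, with filled points for arrays, bars for group means and grey crosses for the brightest Y-linked probe set of the same array. Tef is lower on the 3 XX_Paf arrays than on the other 7, while Dbp, Per2 and 2 of the 3 Cry1 probe sets lie near or below the crosses.

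The Per and Cry genes form the braking limb of the clock. Per1, which also responds quickly to light, neuronal activity and glucocorticoids, varied most within groups. It was at 166.3, 42.0 and 185.3 in XmO, against 180.9, 150.4 and 151.9 in XX_Paf. It was at 66.8 and 189.8 in XpO, against 353.1 and 92.1 in XX_InX. Per1 was above background on 8 of 10 arrays, XmO 2 and XX_InX 19 being the exceptions. Arrays of 1 group differed by more than the groups did, and the groups overlapped in both crosses. The spread of Per1 within groups (residual SD 0.99 in log2) exceeded that of 98.7% of the tested probe sets. Its log2 fold change was -0.56 in XmO against XX_Paf (SE 0.60; limma, adjusted p = 0.918; 0.13 without XmO 2). In XpO against XX_InX it was -0.68 (SE 0.74; limma, adjusted p = 0.9998; 0.29 without XX_InX 1, 0.07 without XpO 15 and -1.65 without XX_InX 19). Over both crosses Per1 had -0.62, with a 95% confidence interval of -1.65 to 0.41. Per2 lay between 46.3 and 75.6 on all arrays, above background on 2 of 10, and was not tested.

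Cry2, which represses CLOCK and ARNTL together with the Per proteins, was the steadiest member and the one whose order followed the number of X chromosomes. It was at 470.5, 484.9 and 517.3 in XmO, against 446.8, 414.3 and 416.0 in XX_Paf. It was at 479.5 and 513.6 in XpO, against 443.5 and 432.5 in XX_InX. Each of the 5 XO arrays was higher than each of the 5 XX arrays. This order was shared with 16 of the 8695 tested probe sets, 0.184%, and held for 1 of the 8 tested probe sets of members. The difference was small: Cry2 had a log2 fold change of 0.21 in XmO against XX_Paf (SE 0.13), 0.18 in XpO against XX_InX (SE 0.16) and 0.19 over both crosses (SE 0.10, 95% confidence interval -0.03 to 0.42). It did not pass in any of these (limma, adjusted p = 0.887, 0.9998 and 0.9995). Cry2's own spread within groups was 0.062 in log2, and 0.621% of the tested probe sets had a smaller one, whereas limma's SE also draws on the spread of other probe sets. The log2 fold changes of Cry2 in the 2 crosses differed by 0.03 (SE 0.21).

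Cry1, the other cryptochrome gene, had 1 bright probe set and 2 that were below background on all 10 arrays, at 0.7 to 17.2 and 0.6 to 19.5. The bright one, which also carries the family suffix, was at 1003.9, 1121.8 and 1139.8 in XmO, against 1169.7, 931.5 and 882.7 in XX_Paf. It was at 896.3 and 875.0 in XpO, against 829.4 and 1138.2 in XX_InX. Both pairs overlapped, with log2 fold changes of 0.14 (SE 0.15; limma, adjusted p = 0.918) and -0.13 (SE 0.18; limma, adjusted p = 0.9998). XmO lay above XpO without overlap, by 0.30 (SE 0.17; limma, adjusted p = 0.969).

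Clock and Arntl encode the activating pair. Clock was at 350.1, 241.9 and 266.4 in XmO, against 228.6, 222.1 and 241.4 in XX_Paf. It was at 245.4 and 284.8 in XpO, against 324.6 and 188.9 in XX_InX. The Paf groups did not overlap, though XmO 2 and XX_Paf 3 differed by less than 1 intensity unit, and XpO lay within the range of XX_InX. Its log2 fold change was 0.29 (SE 0.22; limma, adjusted p = 0.887) and 0.09 (SE 0.27; limma, adjusted p = 0.9998) in the 2 crosses and 0.19 over both (SE 0.18; limma, adjusted p = 0.9995). Arntl was at 345.6, 521.4 and 470.6 in XmO, against 503.9, 405.8 and 487.8 in XX_Paf. It was at 332.6 and 452.2 in XpO, against 400.5 and 451.0 in XX_InX. Arntl overlapped in both crosses, with log2 fold changes of -0.08 (SE 0.19; limma, adjusted p = 0.960) and -0.13 (SE 0.23; limma, adjusted p = 0.9998).

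**Figure D2:**
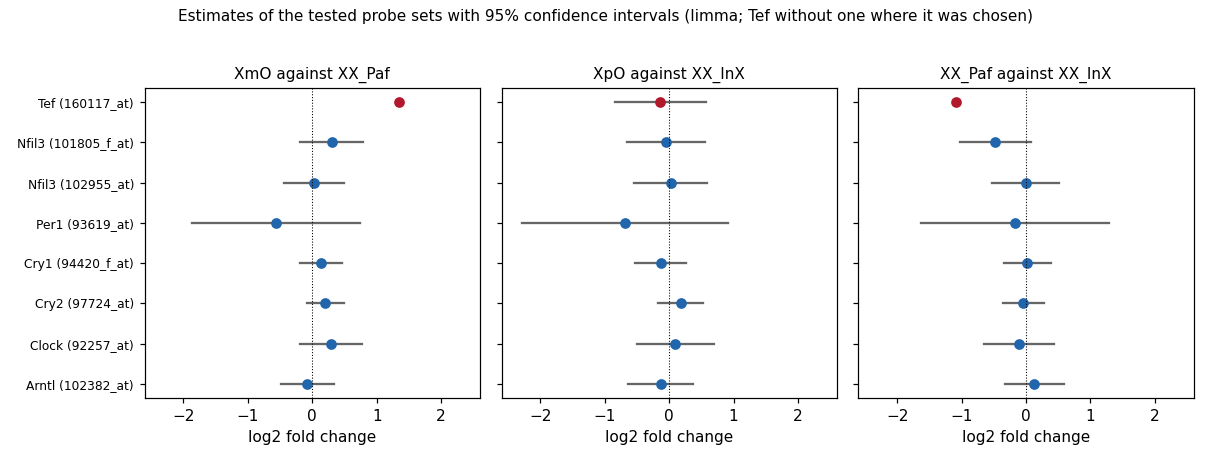
Log2 fold change with its 95% confidence interval for the 8 tested probe sets in XmO against XX_Paf, XpO against XX_InX and XX_Paf against XX_InX. Tef has a point without an interval in the 2 panels that use the XX_Paf arrays, where its values had chosen it, its interval in XpO against XX_InX crosses 0, and the intervals of the other 7 probe sets cross 0 in all 3 panels.

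Over the tested members none was called in any of the 6 comparisons. In XpO against XX_InX 0 of 8 tested probe sets were called, where 0.0115% of all tested probe sets were, and 0 had an unadjusted p under 0.05. The groups did not overlap for 1 of the 8, Cry2, against 23.4% of all. In XmO against XX_Paf 0 of 8 were called, where 0.0230% of all were, and 4 did not overlap (Tef, Clock, Cry2 and the family probe set of Nfil3), against 13.9% of all. Tef was chosen by its values in this comparison, so its place among the 4 was fixed beforehand. In XmO against XpO 0 of 8 were called (0.0115% of all) and 2 did not overlap, Tef and Cry1, against 17.4% of all. In XX_Paf against XX_InX 0 of 8 were called (0.0805% of all) and 2 did not overlap, Tef and the family probe set of Nfil3, against 37.1% of all. In XO against XX 0 of 8 were called (0.0115% of all) and 1 did not overlap, Cry2, against 0.334% of all, and in the difference between crosses 0 of 8 (0.0230% of all). The median log2 fold change of the 8 was 0.17 in XmO against XX_Paf, where that of all tested probe sets was 0.0021. In XpO against XX_InX it was -0.09, where that of all was -0.01. Nothing is read from the place of Tef in the counts and the median that use the XmO or XX_Paf arrays.

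Whether the other members moved with Tef was asked among arrays of 1 group, since the difference between group means had chosen Tef. Each array's deviation from its group mean (log2) was correlated with that of Tef over the 10 arrays, and arrays were permuted within groups (144 permutations, two-sided, adjusted over 8694 probe sets). Among the members Clock had the highest Pearson's r, 0.44 (exact permutation p = 0.0972, adjusted p = 1; Spearman's rho 0.66, p = 0.0625, adjusted p = 1), a value at the 89.6th percentile of all probe sets. Cry2 had 0.34 (exact permutation p = 0.472; rho 0.10, p = 0.813), Per1 0.29 (exact permutation p = 0.299; rho 0.38, p = 0.354) and Arntl 0.19 (exact permutation p = 0.583; rho 0.05, p = 0.924). Nfil3 had 0.12 on the family probe set (exact permutation p = 0.708; rho 0.28, p = 0.486) and -0.12 on the other (exact permutation p = 0.736; rho -0.02, p = 0.972), and Cry1 had 0.09 (exact permutation p = 0.938; rho -0.18, p = 0.694). The smallest p that these permutations can give is 0.00694, so a lone probe set could not pass the adjustment whatever its r, and the adjusted values of 1 say nothing about the members. Of the 7, 0 had an unadjusted p under 0.05, against 2.82% of all. Per3, a clock gene that is not a member, had a higher r than Clock, 0.73, above the 95th percentile of all (0.58). Of other clock loop genes, Rora had -0.49 on its brightest probe set and Timeless had -0.28. The r of the remaining genes of the clock loops is not given here.

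The widest Tef deviations were those of XX_Paf 1 and XX_Paf 2. These 2 arrays were left out of the correlation, while the group means still included them. Then r was 0.88 for Clock, 0.48 for Per1 and 0.55 for the family probe set of Nfil3. It was -0.26 for Cry2, -0.34 for Arntl and -0.87 for Cry1, so the last 3 rested on those arrays. In the Paf cross alone (6 arrays) r was 0.45 for Cry1, 0.33 for Clock, 0.27 for Cry2, 0.23 for Arntl and 0.09 for Per1. There it was -0.22 for the family probe set of Nfil3 and -0.02 for the other. The In(X) cross holds 4 arrays in 2 pairs whose deviations mirror each other, too few for a correlation to be given, and these are 4 of the 8 arrays behind the values without XX_Paf 1 and XX_Paf 2.

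**Figure D3:**
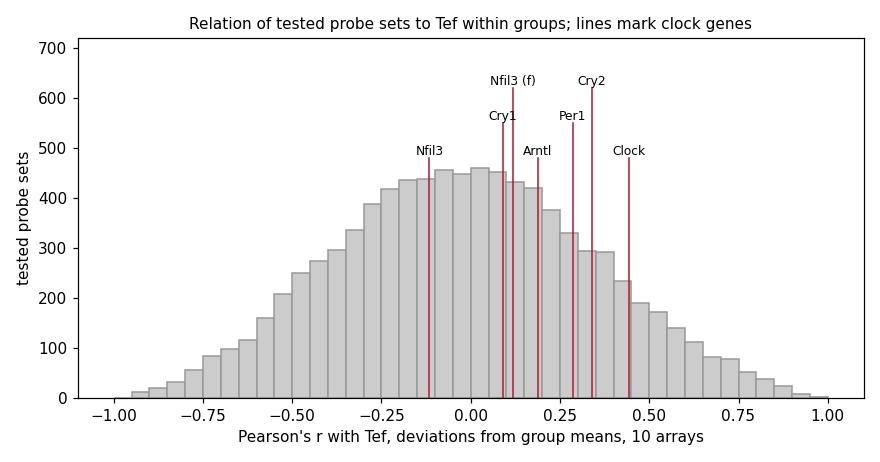
Distribution of Pearson's r between the deviation of Tef from its group mean and that of each of 8694 other tested probe sets over 10 arrays, with lines at the 7 tested probe sets of the other members. All 7 lie between -0.12 and 0.44, inside the range from -0.59 to 0.58 that holds the middle of the distribution between its 5th and 95th percentiles.

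The probe sets whose levels were most like those of Tef over the 10 arrays, group differences included, came from outside the clock. Pearson's r of log2 intensity was 0.94 for 1 probe set of Rps4x, 0.94 for Smyd5, 0.91 for Llgl2, 0.90 for 1 probe set of Creb1 and 0.90 for Rpp21. Creb1 encodes a bZIP activator of the CREB family and was at 186.9, 174.5 and 169.0 in XmO, against 141.3, 84.8 and 151.9 in XX_Paf. It was at 173.8 and 196.6 in XpO, against 211.6 and 178.6 in XX_InX, and its choice by likeness to Tef fixes that XX_Paf is low.

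The rest of the clock was read from lists of related genes. Of 12 symbols for other parts of the loop, 8 were on the array and 7 were tested. 0 were called in either direction in any comparison, and the list medians ran from -0.15 to 0.02. In XmO against XX_Paf 1 estimate was higher and 6 were lower, with a median of -0.15. The higher one was that of Nr1d1 (REV-ERB alpha), which represses Arntl. Nr1d1 was at 214.4, 326.8 and 279.6 in XmO, against 206.4, 214.2 and 167.0 in XX_Paf (log2 fold change 0.47, SE 0.24; limma, adjusted p = 0.887). Bhlhe40, a repressor at E-boxes, was at 108.4, 119.3 and 81.9 in XmO, against 134.2, 122.5 and 169.0 in XX_Paf (-0.46, SE 0.29; limma, adjusted p = 0.887). Neither pair overlapped. Per3 stayed between 249.4 and 331.9 on all arrays, and Npas2, which can stand in for Clock, was below background on all 10.

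Genes that act on clock proteins gave 0 called of 9 tested, with medians of 0.04 in XmO against XX_Paf and 0.05 in XpO against XX_InX. The phosphatase subunit gene Ppp1cb had the smallest p of this list in XmO against XX_Paf. It was at 1218.5, 1637.0 and 1532.9 in XmO, against 2192.8, 2057.1 and 2023.7 in XX_Paf (-0.53, SE 0.13; limma, adjusted p = 0.592). Casein kinase genes Csnk1d and Csnk1e, whose products phosphorylate Per proteins, lay between 2526 and 3200 and between 1340 and 1896 over all arrays. Of 9 genes whose expression is known to depend on PAR bZIP factors or D-boxes in mouse tissues, 4 were tested and 0 were called. In XmO against XX_Paf 3 estimates were higher and 1 was lower, with a median of 0.12. In XpO against XX_InX 2 were higher and 2 lower, with a median of -0.05. Ppara was at 129.6, 186.6 and 230.9 in XmO, against 94.4, 124.8 and 141.5 in XX_Paf, with overlap. It was at 66.1 and 166.2 in XpO, against 171.9 and 97.5 in XX_InX, also with overlap. Pdxk, the pyridoxal kinase gene that depends on them in mouse brain, was at 1368.5, 1144.7 and 1172.4 in XmO, against 911.5, 1306.3 and 1222.5 in XX_Paf. It was at 1123.6 and 1425.5 in XpO, against 1184.0 and 1113.8 in XX_InX. Pdxk overlapped in both crosses (0.11, SE 0.15, and 0.14, SE 0.19). Tshb, the thyrotropin gene that gave Tef its name as thyrotroph embryonic factor, was above background on 2 of 10 arrays and was not tested.

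Other bZIP genes of the C/EBP and CREB families gave 0 called of 11 tested, with medians of 0.12 in XmO against XX_Paf and 0.08 in XpO against XX_InX. The stress-induced Ddit3 (CHOP) was at 165.0, 111.3 and 82.8 in XmO, against 41.4, 53.9 and 34.1 in XX_Paf, with all 3 XX_Paf arrays and XmO 7 not above background, so no fold is given. Its activator Atf4 was at 1925.6, 1903.1 and 1758.1 in XmO, against 1665.0, 1505.5 and 1686.6 in XX_Paf (0.20, SE 0.11; limma, adjusted p = 0.887). Neither gene overlapped in the Paf cross, and Atf4 was lower in XpO than in XX_InX by a log2 value of -0.20 (SE 0.14). In the Paf cross 3 of the 11 tested genes of this list had no overlap, against 13.9% of all tested probe sets.

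**Figure D4:**
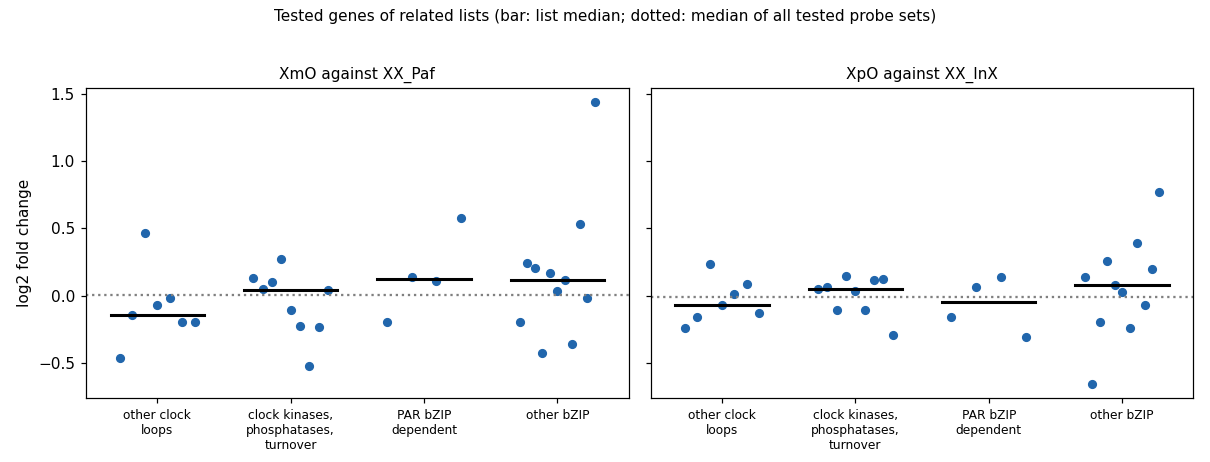
Log2 fold change of each tested gene of 4 related lists in XmO against XX_Paf and in XpO against XX_InX, with bars at list medians and a dotted line at the median of all tested probe sets. List medians lie between -0.15 and 0.12, no gene of these lists was called, and the highest point, Ddit3, was not above background in XX_Paf.

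The 9 lists of stimulus and tissue markers held 58 tested genes, of which 1 was called in any comparison. That gene was Hba-a1, adult alpha globin, higher in XX_Paf than in XX_InX (1.58, SE 0.22; limma, adjusted p = 0.0211). In that comparison 0.0805% of all tested probe sets were called. Hba-a1 was also higher in XmO, at 9381.4, 8648.4 and 13158.0, than in XpO, at 6112.9 and 4541.0. Immediate early genes (13 tested, medians -0.04 to 0.12 over the 6 comparisons), glucocorticoid-induced genes (10 tested, -0.09 to 0.11) and neuron genes (10 tested, -0.10 to 0.08) gave 0 calls. So did genes of the suprachiasmatic nucleus (4 tested, -0.24 to 0.08), pituitary (7 tested, -0.34 to 0.34) and pineal gland and retina (2 tested, -0.25 to 0.23). The choroid plexus list (2 tested, -0.75 to 0.68) and the liver and skeletal muscle list (5 tested, -0.70 to 0.52) had the widest range of medians and 0 calls. The erythroid list (5 tested) held the called gene, with medians of 0.0034 to 0.27.

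Avp and Vip encode peptides made by suprachiasmatic neurons among others. Vip was above background on 3 of 10 arrays and Avp on 7. Avp was at 319.5, 135.1 and 240.3 in XmO, against 245.0, 41.8 and 73.4 in XX_Paf, with overlap and above background on 3 of 3 XmO and 1 of 3 XX_Paf arrays (1.26, SE 0.59; limma, adjusted p = 0.877). Prl, the prolactin gene of the pituitary, was lower on all 5 XO arrays than on all 5 XX arrays. It was at 87.9, 36.1 and 47.9 in XmO, against 126.3, 172.5 and 170.5 in XX_Paf. It was at 59.6 and 72.3 in XpO, against 112.6 and 187.5 in XX_InX. Groups that did not overlap in XO against XX, in either direction, were found for 29 of the 8695 tested probe sets, 0.334%. Prl was above background on 7 of 10 arrays, all XX arrays but only 1 of 3 XmO and 1 of 2 XpO arrays. Its fold thus rests in part on values at background. Prl was not called (-1.34, SE 0.30 in XO against XX; limma, adjusted p = 0.953).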

How the data were processed

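The authors deposited 1 linear intensity per probe set and array, and how probes were summarised is not stated in the labels. With 2% trimmed at each end, the deposited intensity values averaged 500.3 on every array, so arrays had been scaled before deposit and were not normalized again. Controls (66) were left out. Intensities under the 10th percentile (15) were raised to it before log2, and the 8695 probe sets with a mean log2 value of at least 6.09 (the 30th percentile) were tested, among them 8 of the 12 of members.

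Group means were estimated with limma (version 3.58.1, R 4.3.3), using lmFit and then eBayes with the prior variance following intensity, which left 6 residual degrees of freedom. There were 6 two-sided contrasts. Benjamini-Hochberg adjustment ran over all tested probe sets, with a call at an adjusted p under 0.05. The number of arrays limits the precision. Fit and permutation test were tested on simulated data.

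The probe table gave 1 symbol for 10833 probe sets, several for 396 and none for 1193. Members, lists and tests were chosen with earlier results of these data known. Every probe set of a member is named. Other lists give their called genes, or a selection of up to 3 tested genes of smallest p in each cross, each by its brightest probe set. Dcx, Tubb3, Csnk1d, Per3, Apoa1, Vip, Npas2 and Tshb were named after their values were seen. Alternatives were the floor, the filter, a pseudocount, quantile normalization, the eBayes trend, fewer arrays and a replicate block.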

Additional observations from a re-analysis of the deposited data

How the results depend on the processing

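No member and no other clock gene was called under any alternative tried (floor at the 20th percentile, no filter, pseudocount of 16, quantile normalization, no trend, only the arrays of the contrast, replicate block, each array left out). Of 174 values from alternatives other than leaving out an array, 3 changed sign. The probe set of Nfil3 listed under U83148 had -0.042 in XmO against XX_Paf with the replicate block. With no group means removed, r with Tef was -0.044 for Per1 and -0.11 for Arntl. Deviations of XmO and XX_Paf arrays with a shared replicate number correlated at -0.01 (number 1) and -0.04 (number 2). All pairs of an XmO and an XX_Paf array lay between -0.08 and 0.09, so these values cannot show whether shared numbers mark pairs. With the block Tef had 1.50 and Per1 -0.98 with 0 members called.

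Leaving out 1 array changed the sign of 16 of 32 results, of which 25 were estimates of contrasts and the rest were r with Tef. Every tested probe set of a member was included for XmO against XX_Paf and XpO against XX_InX, but only some for the other contrasts. Estimates near 0 in those, such as 0.0025 for Cry1 in XO against XX, were not among the 32. In XmO against XX_Paf the ranges were -0.20 to 0.095 for Arntl, -0.11 to 0.16 for Nfil3 (U83148) and -0.94 to 0.13 for Per1. In XpO against XX_InX they were -0.38 to 0.28 for the family probe set of Nfil3, -0.35 to 0.089 for Arntl, -0.20 to 0.25 for Nfil3 (U83148), -0.36 to 0.080 for Tef, -0.30 to 0.48 for Clock, -1.65 to 0.29 for Per1 and -0.36 to 0.095 for Cry1. In XO against XX Clock ranged over -0.0013 to 0.39. The r with Tef ranged over -0.12 to 0.37 for the family probe set of Nfil3, -0.38 to 0.20 for Nfil3 (U83148), -0.68 to 0.43 for Cry1, -0.11 to 0.66 for Cry2 and -0.26 to 0.56 for Arntl. The cause was not tested. Cry2 stayed between 0.17 and 0.22 in XO against XX. Dbp, Per2 and 2 probe sets of Cry1 were too dim to test.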

Other observations

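Within the In(X) cross, several clock genes were ordered alike in both groups. Tef, Per1, Clock, Cry2, Arntl and the family probe set of Nfil3 were higher in XpO 18 than in XpO 15, at 614.4 against 535.7 for Tef and 189.8 against 66.8 for Per1. In XX_InX 1 all of these but Arntl were also higher than in XX_InX 19, at 733.8 against 542.8 for Tef and 353.1 against 92.1 for Per1, while Arntl was lower in XX_InX 1, at 400.5 against 451.0. These were 5 of the 8 tested probe sets of members, and 2, the other probe set of Nfil3 and the bright one of Cry1, were lower in both arrays. Of all 8695 tested probe sets, 29.8% were higher in both of these arrays than in the other array of their group and 25.8% were lower in both. The labels give these arrays no shared number, and this order was noticed after the values were seen.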
